A study of Caenorhabditis elegans with 6 samples.

Results

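The 9 genes described here are *irg-1*, *irg-4*, *irg-5*, *dod-17*, *dod-19*, *dod-21*, *dod-22*, *dod-24* and *C32H11.3*, which are used in *Caenorhabditis elegans* as readouts of the response to infection and of insulin signaling. They were picked by name and matched by symbol to 9 of the 46726 gene identifiers in the count tables. Of the 12335 genes with enough counts to be tested, 8 were members of this set, and *dod-21* was not. RNA-seq was performed on whole animals to compare *mbl-1(tm1563)* mutants with the wild-type strain N2. The allele is a putative null of *mbl-1*, the gene for the Muscleblind splicing factor MBL-1. There were 3 biological replicates of *mbl-1(tm1563)* and 3 of N2. The mutants carry a deletion allele that removes an exon of *mbl-1* and were outcrossed to N2. All animals of both strains were day 2 adults (day 5 from hatch) grown at 20 °C with empty-vector HT115 bacteria as food, and all were kept on 10 µM 5-fluorouracil to stop progeny from hatching, with no pathogen among the growth conditions.

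Infection response genes (*irg*) were named for their induction when the animals feed on pathogenic bacteria. Induction of *irg-1* runs through the bZIP factor ZIP-2, whereas *irg-4* and *irg-5* depend largely on the p38 kinase PMK-1 and its factor ATF-7. The *dod* genes were named as downstream of DAF-16, the FOXO factor that the insulin receptor DAF-2 holds back, and the members followed here belong to those with lower expression when insulin signaling is reduced. Several of these genes are expressed in the intestine and encode secreted proteins with a CUB-like domain, and *dod-22*, *dod-24* and *irg-5* are also used as markers of PMK-1 immunity.

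Primers for qRT-PCR had been designed for 3 of the 9 genes, and they are shown because they identify the transcripts that were chosen as readouts, *irg-4* for PMK-1 and *dod-24* and *C32H11.3* for SKN-1, a stress response factor that PMK-1 activates. All 3 genes lie on chromosome IV.
irg-4 forward: gaacccattagcaatctaccgt
irg-4 reverse: gttgagcttgtgacagtggg
dod-24 forward: atgggtcagaatcaggtgga
dod-24 reverse: tcaggcccatcgtaacttgt
C32H11.3 forward: ctttcaaatgacgaagtggcg
C32H11.3 reverse: gtctgaattaaactctgcggc

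The libraries held 17722502 to 18125452 counts on genes in the mutants and 17574738 to 20750318 in N2. Reads that aligned to several places were not counted on genes, and their share was 7.34% to 8.08% in the mutants and 9.74% to 9.87% in N2. Over the genes tested, mutant replicate 1 differed more from mutant replicates 2 and 3 than these differed from each other. The targeted gene *mbl-1* had 3.62, 7.84 and 5.79 CPM (counts per 1000000 counts on genes, after scaling) in mutant replicates 1, 2 and 3, against 12.3, 12.2 and 13.5 CPM in N2 replicates 1, 2 and 3. Reads from the exons that the deletion leaves in place are part of these counts. All mutant libraries were below all N2 libraries, with a log2 fold change of -1.14 (SE 0.24, adjusted p = 0.0342). Here and below, fold changes are *mbl-1(tm1563)* over N2 from edgeR's quasi-likelihood test, SE is the standard error of the log2 fold change, and p-values were adjusted over all 12335 genes by the Benjamini-Hochberg method. Calls required an adjusted p under 0.05 together with a difference of 2-fold or more. The call of *mbl-1* held without mutant replicate 2, came under 2-fold without mutant replicate 1 (log2 fold change -0.89), and missed the adjusted p without mutant replicate 3 or any N2 library (0.0991 to 0.154).

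Among the 8 genes tested, *dod-22* was called higher in *mbl-1(tm1563)* mutants and none was called lower, whereas 0.697% of all genes tested were called higher and 1.14% lower. *dod-19* passed the adjusted p with a change of less than 2-fold. Of all genes tested, 5.46% had an adjusted p under 0.05, and of the 8 genes these were *dod-19* and *dod-22*, both higher in the mutants. At an unadjusted p under 0.05 there were 5 of the 8 genes, against 23.9% of all genes tested, a share that also stands behind the unadjusted counts of the other lists given later. DESeq2 called 1 gene higher (*dod-22*) and 1 lower (*irg-4*). The 8 genes did not share a direction. The mutant libraries were all above the N2 libraries for *dod-19*, *dod-22* and *dod-24*, all below them for *irg-4* and *C32H11.3*, and overlapped with them for *irg-1*, *irg-5* and *dod-17*. Over all genes tested, 32.6% had strains that did not overlap (14.7% above and 17.9% below). The median log2 fold change was 0.11 over the 8 genes and -0.04 over all genes tested.

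**Figure D1:**
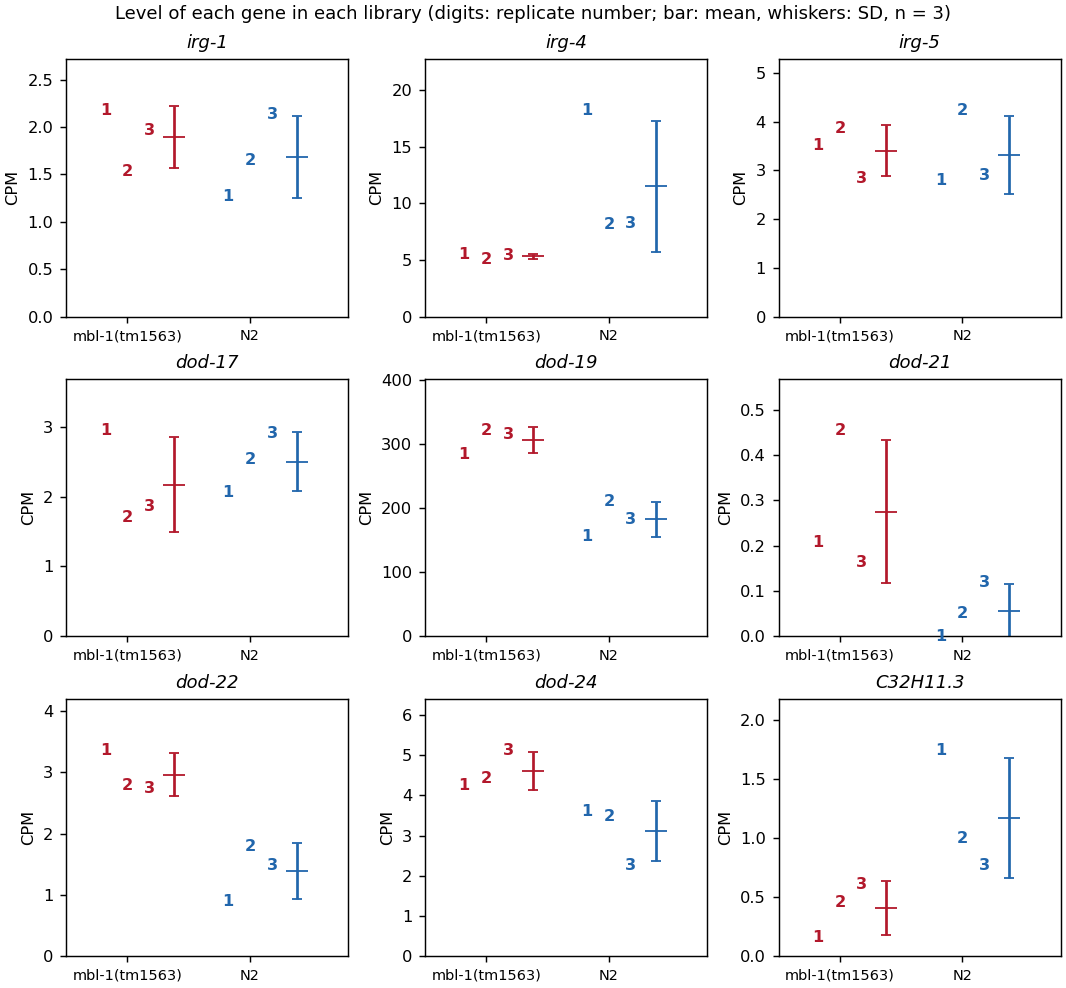
Expression (CPM, linear axis from 0, a separate scale for each gene) of the 9 genes in the 3 *mbl-1(tm1563)* and 3 N2 libraries. Digits mark the replicate, the bar the mean and the whiskers the SD (n = 3). The mutant libraries sit above all N2 libraries for *dod-19*, *dod-21*, *dod-22* and *dod-24*, and below them for *irg-4* and *C32H11.3*.

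The infection response gene *irg-4* (WBGene00008584, WBcel235 chromosome IV from 12435833 to 12438236, plus strand) had 106, 89 and 99 counts in mutant replicates 1, 2 and 3, against 345, 163 and 139 in N2 replicates 1, 2 and 3. Scaled to the library, this was 5.49, 5.06 and 5.40 CPM in the mutants, against 18.2, 8.11 and 8.22 CPM in N2. The mutant libraries lay within a narrow range, all below N2, and N2 replicate 1 was more than double the other N2 libraries. The log2 fold change was -1.12 (SE 0.33) and did not pass the test (adjusted p = 0.0929). Without N2 replicate 1 it was -0.62 (adjusted p = 0.0987). DESeq2 gave a log2 fold change of -1.08 that passed (adjusted p = 0.00997).

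*irg-1* (WBGene00015574, chromosome V from 3523587 to 3524679, plus strand), the ZIP-2 readout, had 2.17, 1.53 and 1.97 CPM in the mutants, against 1.27, 1.64 and 2.13 CPM in N2. The strains overlapped, and the log2 fold change was 0.19 (SE 0.24, adjusted p = 0.651). *irg-5* (WBGene00009429, chromosome V from 13737010 to 13738474, minus strand) had 3.52, 3.86 and 2.84 CPM in the mutants, against 2.80, 4.23 and 2.90 CPM in N2. Its strains also overlapped, with a log2 fold change of 0.03 (SE 0.21, adjusted p = 0.937). These values rest on 24 to 42 counts of *irg-1* and 49 to 85 counts of *irg-5* per library, so a small change of either gene could have been missed.

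The highest expressed of the 9 genes was *dod-19* (WBGene00022644, chromosome V from 411782 to 414759, minus strand). It had 5467, 5652 and 5760 counts in mutant replicates 1, 2 and 3, against 2932, 4212 and 3077 in N2 replicates 1, 2 and 3. This was 283.0, 321.1 and 314.4 CPM in the mutants, against 154.8, 209.6 and 182.0 CPM in N2. Every mutant library was above every N2 library, by more than the spread within either strain. The mean was 306.2 ± 20.3 CPM in the mutants and 182.1 ± 27.4 CPM in N2 (SD, n = 3 each), a 1.68-fold difference (log2 fold change 0.75, SE 0.12, adjusted p = 0.0124). When 1 library at a time was left out, the log2 fold change stayed between 0.64 and 0.86, but the adjusted p was above 0.05 without N2 replicate 1 (0.0529), N2 replicate 3 (0.0786) or mutant replicate 3 (0.0828).

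*dod-22* (WBGene00010125, chromosome IV from 12965374 to 12967392, plus strand) was the gene called higher. It had 65, 49 and 50 counts in mutant replicates 1, 2 and 3, against 17, 36 and 25 in N2 replicates 1, 2 and 3. In CPM these were 3.37, 2.78 and 2.73 in the mutants, against 0.897, 1.79 and 1.48 in N2. The strains did not overlap, and N2 replicate 1 was the lowest of all libraries. The mean was 2.96 ± 0.35 CPM in the mutants and 1.39 ± 0.45 CPM in N2 (SD, n = 3 each), a 2.12-fold difference (log2 fold change 1.09, SE 0.25, adjusted p = 0.0483). The call lay close to the threshold. It held without mutant replicate 2 (adjusted p = 0.0298) and was lost without any other library, where the log2 fold change was 0.85 (without N2 replicate 1) to 1.33 (without N2 replicate 2) and the adjusted p was 0.0414 to 0.161. The lowest of these adjusted p-values, without mutant replicate 1, came with a change of less than 2-fold (log2 fold change 0.98).

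*dod-24* (WBGene00007875, chromosome IV from 12940106 to 12941354, minus strand), an intestinal marker of PMK-1 immunity, had 4.25, 4.43 and 5.13 CPM in the mutants, against 3.59, 3.48 and 2.25 CPM in N2. All mutant libraries were above all N2 libraries, and N2 replicate 3 was the lowest. The log2 fold change of 0.55 (SE 0.20) did not pass the test (adjusted p = 0.143). *dod-17* (WBGene00010745, chromosome IV from 12976303 to 12978343, plus strand) had 2.95, 1.70 and 1.86 CPM in the mutants, against 2.06, 2.54 and 2.90 CPM in N2. Mutant replicate 1 was above every N2 library and the other mutant libraries below all of them, so the strains overlapped, and the log2 fold change was -0.19 (SE 0.25, adjusted p = 0.661).

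*dod-21* (WBGene00007873, chromosome IV from 12936738 to 12937988, plus strand) was close to the limit of detection, with 4, 8 and 3 counts in the mutants and 0, 1 and 2 counts in N2. It did not pass the filter on low counts. The summed counts were 15 in the mutants and 3 in N2, a ratio of 5.06 relative to the library totals, with a 95% interval of 1.43 to 27.3 (Clopper-Pearson) that covers counting error only. In a fit without the filter its log2 fold change was 2.24 (SE 0.84, adjusted p = 0.176).

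*C32H11.3* (WBGene00007866, chromosome IV from 12918556 to 12920393, plus strand) encodes a CUB-like protein in the same stretch as several *dod* genes. It had 3, 8 and 11 counts in mutant replicates 1, 2 and 3, against 33, 20 and 13 in N2 replicates 1, 2 and 3. In CPM these were 0.155, 0.455 and 0.600 in the mutants, against 1.74, 0.995 and 0.769 in N2. Every mutant library was below every N2 library, but the highest mutant and the lowest N2 library were close to each other. The log2 fold change was -1.55 (SE 0.49), the largest in size among the 8 genes, and did not pass the test (adjusted p = 0.109). Leaving out 1 library gave values between -1.96 and -1.15, and DESeq2 gave -1.51 (adjusted p = 0.103).

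Levels were compared between genes after division by exon length, as CPM per kb of exon. In the mutants the order from high to low was *dod-19* (219.3), *irg-4* (4.82), *dod-24* (3.98), *irg-5* (3.05), *irg-1* (2.52), *dod-22* (2.36), *dod-17* (1.90), *C32H11.3* (0.319) and *dod-21* (0.241). In N2 it was *dod-19* (130.5), *irg-4* (10.4), *irg-5* (2.96), *dod-24* (2.69), *irg-1* (2.24), *dod-17* (2.19), *dod-22* (1.11), *C32H11.3* (0.925) and *dod-21* (0.0492). *dod-19* stood apart, at the 94.3rd percentile of all genes tested on this scale, and was far above *irg-4* in every library. In the mutants *irg-5* and *irg-1*, *irg-1* and *dod-22*, *dod-22* and *dod-17*, and *C32H11.3* and *dod-21* overlapped between libraries. In N2 the overlapping neighbors in the order were *irg-5* and *dod-24*, *dod-24* and *irg-1*, *irg-1* and *dod-17*, and *dod-22* and *C32H11.3*.

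Genes that share the *irg* and *dod* names were then examined in the same table. Of the 5 other *irg* genes 4 were tested and 0 were called by edgeR or DESeq2, with 3 at an unadjusted p under 0.05 and a median log2 fold change of 0.44. *irg-2*, which is also induced through ZIP-2, had 7.51, 6.99 and 6.39 CPM in the mutants, against 3.96, 4.58 and 4.08 CPM in N2. Every mutant value was above N2, with a 1.65-fold difference (log2 fold change 0.72, SE 0.13) that passed the adjusted p (0.0222) but not the 2-fold limit. The adjusted p was 0.0166 to 0.117 with 1 library left out, and was above 0.05 without any N2 library or mutant replicate 3. *irg-3* (log2 fold change 0.37, adjusted p = 0.119) and *irg-8* (0.51, adjusted p = 0.0783) were also above N2 in every mutant library. *irg-7* overlapped (-0.16, adjusted p = 0.730), and *irg-6* was not tested (0.414, 0.511 and 0.327 CPM in the mutants, against 0.106, 0.498 and 0.118 CPM in N2).

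Of the 5 other *dod* genes 4 were tested and 0 were called by edgeR or DESeq2, with 2 at an unadjusted p under 0.05 and a median log2 fold change of -0.10. *dod-6*, which unlike the genes above is raised by DAF-16, had 6.32, 11.5 and 11.4 CPM in the mutants, against 13.8, 14.0 and 15.6 CPM in N2. The strains did not overlap, mutant replicate 1 was the lowest, and the log2 fold change of -0.58 (SE 0.21) did not pass (adjusted p = 0.158). The strains overlapped for *dod-3* (log2 fold change -0.18), *dod-18* (-0.02) and *dod-23* (0.20), and *dod-20* was not tested. *dod-18* shares 304 exon bases with *C54G4.7* on the opposite strand, and reads from these bases cannot be assigned to either gene because the counting did not use strand. No exon of the 9 genes overlaps another annotated gene.

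**Figure D2:**
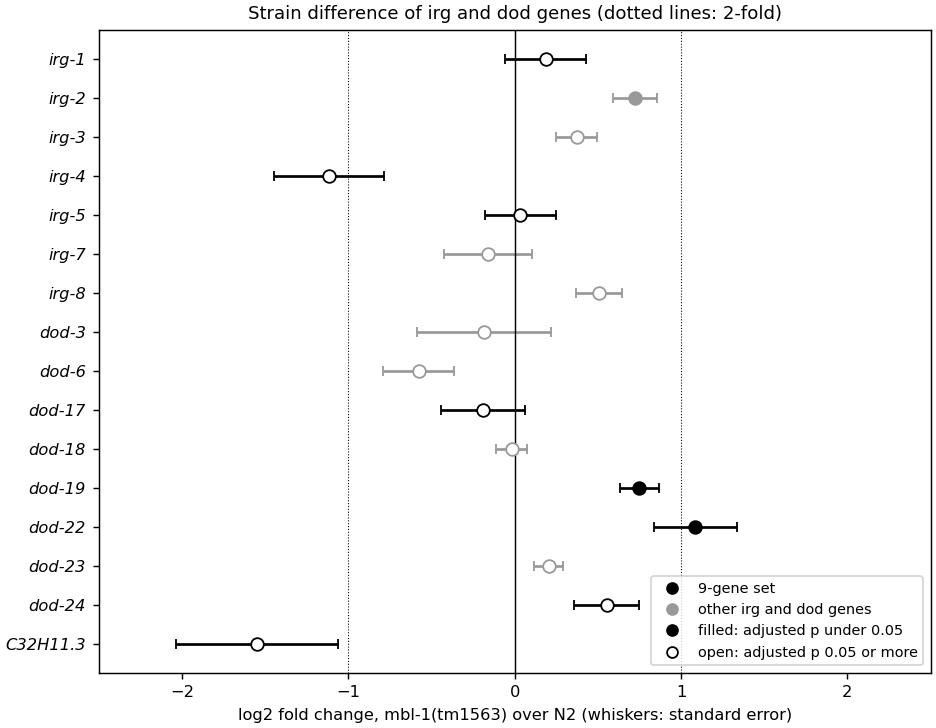
Log2 fold change (*mbl-1(tm1563)* over N2) with its standard error for the tested *irg* and *dod* genes and *C32H11.3*. Filled points had an adjusted p under 0.05 and dotted lines mark a 2-fold change. *irg-2*, *dod-19* and *dod-22* are filled, all to the right of 0, and *irg-4* and *C32H11.3* lie farthest to the left, unfilled, at -1.12 and -1.55.

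The members *C32H11.3*, *dod-21*, *dod-24*, *dod-22* and *dod-17*, lie in this order along one stretch of chromosome IV, in which *C32H11.3* and *dod-17* are 55.9 kb apart and *dod-21* and *dod-24* 2.12 kb apart. *irg-4* lies on the same chromosome, 480 kb from *C32H11.3*, and the other members lie on chromosome V. Within the cluster the log2 fold changes of the tested members were -1.55 (*C32H11.3*), 0.55 (*dod-24*), 1.09 (*dod-22*) and -0.19 (*dod-17*), of which only that of *dod-22* passed the test. Protein-coding genes within 20 kb of a member were counted next. Around the 5 clustered members there were 28 such genes, of which 10 were tested, 1 was called higher and 1 lower.

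The gene called lower was *C32H11.4*, which starts 871 bp after *C32H11.3* on the same strand. It had 1.71, 2.16 and 1.31 CPM in the mutants, against 7.65, 5.37 and 7.57 CPM in N2. The mutants were well below N2 in every library (log2 fold change -1.99, SE 0.23, adjusted p = 0.00444), and the call held without any 1 library (-2.14 to -1.83). The gene called higher was *K10D11.5*, 11342 bp from *dod-17*, with a mean of 15.3 ± 0.60 CPM in the mutants and 6.64 ± 1.58 CPM in N2 (SD, n = 3 each). The strains were far apart (log2 fold change 1.19, SE 0.16, adjusted p = 0.00840), although the adjusted p was 0.0559 without mutant replicate 3 and 0.0572 without N2 replicate 1. *F55G11.2*, whose 3′ end lies 53 bp from that of *dod-22* on the opposite strand, had a log2 fold change of -0.81 (adjusted p = 0.108), with all mutant libraries below N2, opposite in sign to *dod-22*.

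On the other side of *C32H11.3*, the nearest gene tested was *K08D8.5*, 6427 bp away. Its log2 fold change of -0.34 did not pass (adjusted p = 0.179), with all mutant libraries below N2. *K08D8.5* is also among the PMK-1-regulated genes with qRT-PCR primers that are counted below. *K08D8.3*, 11897 bp away, had a log2 fold change of -0.60 (adjusted p = 0.0431), under the 2-fold limit, and *K08D8.4* one of 0.66 (adjusted p = 0.141). *irg-6* lies 3587 bp from *C32H11.3*, in the same group of genes. Beyond the cluster, *ugt-65*, a UDP-glucuronosyltransferase gene 3197 bp from *irg-4*, had 0.725, 0.795 and 0.546 CPM in the mutants, against 2.59, 2.14 and 2.60 CPM in N2. All mutant libraries were below N2 and the gene was called lower (log2 fold change -1.81, SE 0.22, adjusted p = 0.00535), also without any 1 library. *dct-17*, 6226 bp from *irg-5*, had 17.5, 23.9 and 22.1 CPM in the mutants, against 4.38, 10.8 and 6.63 CPM in N2, and was called higher (log2 fold change 1.53, SE 0.29, adjusted p = 0.0265). That call was lost without mutant replicate 3, N2 replicate 1 or N2 replicate 3 (adjusted p 0.0737 to 0.128). Over all 9 members there were 72 neighbors, of which 33 were tested and 4 called (12.1%, against 1.84% of all genes tested), with a median log2 fold change of 0.01.

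**Figure D3:**
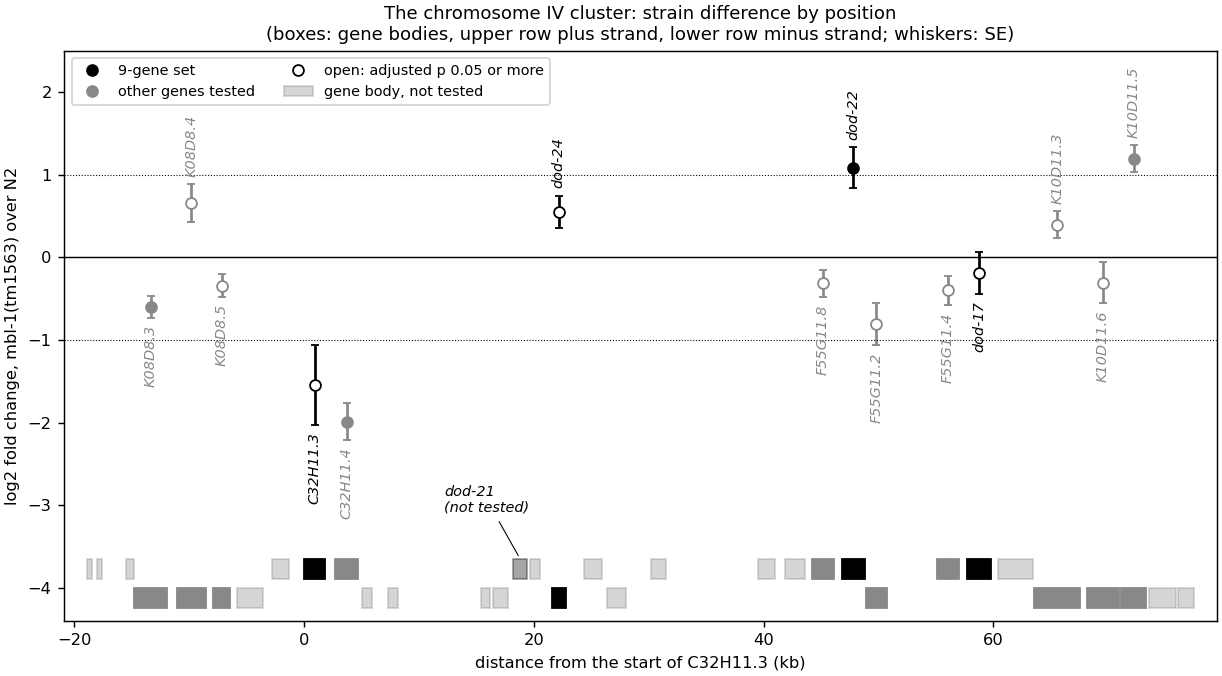
Strain difference by position in the chromosome IV cluster. The x axis gives the distance in kb from the start of *C32H11.3*, the points the log2 fold change (*mbl-1(tm1563)* over N2) with its standard error, and the boxes the gene bodies (upper row plus strand, lower row minus strand, pale boxes not tested). *C32H11.3* and *C32H11.4* lie below 0, and *dod-24*, *dod-22* and *K10D11.5* above it. The nearest tested genes on both sides of *dod-22* lie below 0, with an adjusted p above 0.05.

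The regulators named above were read from lists of pathway genes. Of the 8 genes of the p38 pathway and its factors 0 were called by edgeR or DESeq2, with 2 at an unadjusted p under 0.05 (23.9% of all genes tested) and a median log2 fold change of -0.22. *pmk-1*, the p38 kinase, had 16.5, 19.9 and 19.4 CPM in the mutants, against 16.8, 18.3 and 20.5 CPM in N2, with overlapping strains. *tir-1* and *nsy-1*, the adaptor and the first kinase of the cascade, were below N2 in every mutant library but did not pass (log2 fold changes of -0.42 and -0.47, adjusted p = 0.203 and 0.163). Its factors *atf-7* (-0.02) and *skn-1* (-0.22) overlapped. Of 8 genes of the insulin pathway 0 were called by either tool, with 3 at an unadjusted p under 0.05 and a median of -0.19, and *daf-2* (-0.42) and *daf-16* (-0.25) overlapped between strains.

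Of 10 other infection regulators 0 were called by either tool, with 4 at an unadjusted p under 0.05 (23.9% of all genes tested) and a median log2 fold change of -0.07. *zip-2*, the factor upstream of *irg-1* and *irg-2*, had 70.2, 144.8 and 118.6 CPM in the mutants, against 150.3, 155.2 and 160.1 CPM in N2. No mutant library reached N2, and the log2 fold change of -0.48 (SE 0.23) did not pass (adjusted p = 0.241). Mutant replicate 1, which stood apart from the other mutant libraries over the genes tested, was farthest away. *zip-2* shares 64 exon bases with *dos-3* on the opposite strand and 78 with *linc-37* on the same strand. *hlh-30*, the TFEB homolog, was also below N2 in every mutant library (-0.47, adjusted p = 0.0859). None of the 3 intestinal GATA factors was called by edgeR or DESeq2, with 0 at an unadjusted p under 0.05, and *elt-2*, which drives intestinal expression, had a log2 fold change of -0.17 (adjusted p = 0.353).

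Other genes for which qRT-PCR primers had been designed were set beside *irg-4*, *dod-24* and *C32H11.3*. They are known targets of these pathways that the study followed by qRT-PCR, and their counts are not read as independent evidence of a direction. Of 8 other PMK-1-regulated genes 4 were called lower and 0 higher, where 1.14% of all genes tested were called lower and 0.697% higher. Those shares also stand behind the counts of SKN-1-regulated and DAF-16-regulated genes given below. The median log2 fold change of the 8 genes was -1.03, against -0.04 over all genes tested and -1.12 for *irg-4*, which was not called. The 4 called lower were *catp-3* (-1.40), *T25C12.3* (-2.29), *grd-3* (-1.27) and *amt-1* (-2.01), and the number called was 2 without mutant replicate 3. The call of *amt-1* was lost without mutant replicate 3 or any N2 library (adjusted p 0.0636 to 0.157). *C29F3.7* passed the adjusted p under the 2-fold limit (-0.74, adjusted p = 0.0153). *C17H12.8* lay on the other side, above N2 in every mutant library (0.73, adjusted p = 0.124). Without N2 replicate 2 it was called higher (1.05, adjusted p = 0.0376). *amt-1* shares 156 exon bases with *C05E11.15* on the opposite strand. Of 4 other SKN-1-regulated genes 2 were called higher, *B0024.4* (1.88) and *F23F12.3* (1.64), and 2 lower, *gst-10* (-1.08) and *pcp-2* (-1.21). Only 2 of these 4 stayed called without mutant replicate 3, N2 replicate 1 or N2 replicate 3. *gst-10* and *pcp-2* are genes raised by SKN-1, as are *dod-24* and *C32H11.3*, whereas *B0024.4* and *F23F12.3* are lowered by it. Below the threshold, *C32H11.3* (-1.55) had the sign of *gst-10* and *pcp-2*, and *dod-24* (0.55) had the opposite sign.

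Among 3 DAF-16-regulated genes, *mtl-1*, a metallothionein gene raised by DAF-16, had 2.02, 1.53 and 1.47 CPM in the mutants, against 7.71, 4.68 and 5.74 CPM in N2, and was called lower (log2 fold change -1.84, adjusted p = 0.00760). *ins-7*, an insulin-like peptide gene lowered by DAF-16 as the *dod* members are, was called higher (1.84, adjusted p = 0.0153), and *sod-3*, which DAF-16 raises, had a log2 fold change of -1.63 (adjusted p = 0.0529) and shares 65 exon bases with *C08A9.3* on the opposite strand. All mutant libraries were below N2 for *mtl-1* and *sod-3* and above N2 for *ins-7*. The number of these 3 genes called was 2 with all libraries, 0 without mutant replicate 3, 1 without N2 replicate 1 or N2 replicate 3, and 3 without mutant replicate 1. With all libraries, 1.84% of all genes tested were called.

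Markers of the tissues in whole animals were read from the same table. Of 8 intestinal markers 0 were called by edgeR or DESeq2 and 4 had an unadjusted p under 0.05 (23.9% of all genes tested), all 8 log2 fold changes were negative (median -0.27), and the summed level was 1096 to 1598 CPM in the mutants and 1573 to 1752 CPM in N2. That sum was mostly *asp-1* (means of 792.1 CPM in the mutants and 948.3 CPM in N2). *pept-1*, the intestinal peptide transporter, passed the adjusted p (log2 fold change -0.82, adjusted p = 0.00410) under the 2-fold limit. The 4 body wall muscle markers summed to 474.0 to 646.1 CPM in the mutants and 737.3 to 819.1 CPM in N2, the 5 neuronal markers to 40.6 to 44.9 CPM in the mutants and 43.6 to 48.3 CPM in N2, and the 5 oocyte markers to 4493 to 7064 CPM in the mutants and 5616 to 6209 CPM in N2. The largest part of the oocyte sum was *cbd-1* (means of 2132 CPM in the mutants and 2654 CPM in N2). The 5 hypodermal markers summed to 732.4 to 1036 CPM in the mutants and 1032 to 1069 CPM in N2. That sum was mostly *col-140* and *col-19* (means of 766.5 and 277.8 CPM in N2). Of the 4 hypodermal markers tested, 2 log2 fold changes were positive and 2 negative (median 0.14). Of 6 sperm markers 1 was tested and *msp-10* was at 0 in all libraries, and the 5 embryo markers summed to 4.42 to 5.17 CPM in the mutants and 5.50 to 7.31 CPM in N2. None of the muscle, hypodermal, neuronal, oocyte, sperm or embryo markers was called by either tool, and 4 of these markers had an unadjusted p under 0.05. The muscle myosin genes *myo-3* (log2 fold change -0.65, adjusted p = 0.0132) and *unc-54* (-0.58, adjusted p = 0.0411) passed the adjusted p under the 2-fold limit, both below N2 in every mutant library. The part of tissue content in the values of the 9 genes was not tested, and in whole animals fewer cells of a type and less RNA per cell cannot be told apart.

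The members were last compared across alternatives, that is, 12 other scalings, filters, tools and limits and the omission of each library. *irg-4* and *C32H11.3* kept a negative log2 fold change, and *irg-1*, *dod-19*, *dod-22* and *dod-24* a positive one, in every fit that tested them. The alternatives that changed only the fold limit or the limit on the adjusted p reuse the main fit, so there the log2 fold changes could not differ. *irg-5* and *dod-17* changed sign when single libraries were left out. Removing each library's trend with exon length moved the 8 log2 fold changes by -0.01 to 0.06, and with it *dod-22* stayed called. That call was lost with upper quartile scaling (adjusted p = 0.0537), the earlier form of the quasi-likelihood test (0.0533), a filter of 1 CPM in 3 libraries (0.0501) and the replicate number as a block (0.101).

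**Figure D4:**
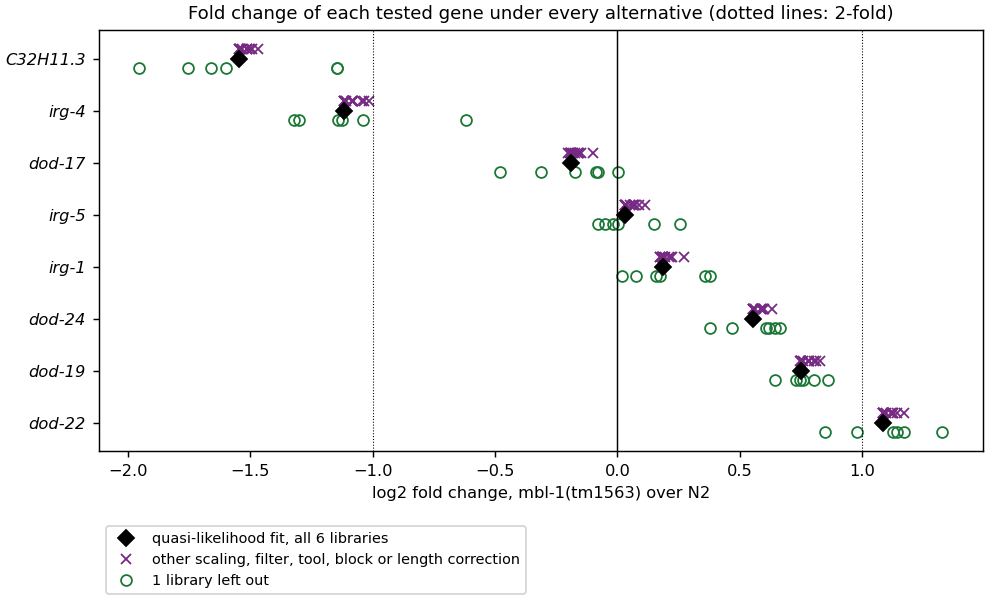
Log2 fold change (*mbl-1(tm1563)* over N2) of the 8 tested genes with all 6 libraries (diamonds), under other scalings, filters, tools, the replicate block or the length correction (crosses), and with 1 library left out (circles). Dotted lines mark a 2-fold change. The crosses stay close to the diamonds, and the circles spread more widely, from -1.32 to -0.62 for *irg-4* and from 0.85 to 1.33 for *dod-22*. Crosses for a changed fold limit or limit on the adjusted p reuse the fit of the diamonds and equal them.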

How the data were processed

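The authors aligned stranded poly(A) libraries with STAR to the WBcel235 transcriptome and used HTSeq, ignoring strand, to count them per gene. Raw counts were deposited, with neither normalization nor a filter. Reads aligned to several places are outside these counts. Symbols, positions and exon lengths came from annotation release 115 of the same assembly.

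Strains were compared with edgeR 4.0.16 (R 4.3.3): filterByExpr (minimum count 10, minimum total 15), TMM scaling and the robust quasi-likelihood test, with the strain as the only factor. CPM are relative to the TMM-scaled library total. The test was checked on simulated data. No pair of libraries of the same strain agreed within sampling noise. The chi-square per degree of freedom was 3.83 to 8.99 in N2 and 12.2 to 59.7 in the mutants. In the mutants it was 59.7 between replicates 1 and 2, 24.6 between replicates 1 and 3, and 12.2 between replicates 2 and 3. Each library was treated as 1 replicate.

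The members and gene lists were chosen with earlier results of these data known. All members are named, with every other *irg* and *dod* gene, called neighbors within 20 kb, neighbors in the *C32H11* group, genes of the lists by count and in part by name, and the gene and member of nearest profile. *F55G11.2* was named after its values were seen. Alternatives included other scalings, filters, limits, DESeq2 1.42.0, the replicate number as a block, a length correction and the omission of each library. Values from qRT-PCR are not reported here. One neighboring gene of the annotation was not analysed here.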

Additional observations from a re-analysis of the deposited data

How the results depend on the processing

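Of all genes tested, 86 were called higher and 141 lower. Without a fold limit these counts were 221 and 453, at an adjusted p under 0.01 they were 37 and 65, and with 1 library left out they were 33 to 138 and 55 to 232 (lowest without mutant replicate 3, highest without mutant replicate 2). Among the members, 1 was called higher and 0 lower. The count called higher was 0 with upper quartile scaling, the earlier quasi-likelihood form, at least 1 CPM in 3 libraries, an adjusted p under 0.01 or the replicate block, 2 without a fold limit (with *dod-19*), and 0 to 1 with 1 library left out. The count called lower was 1 (*irg-4*) with DESeq2 and with the length correction and replicate block together, and 0 to 0 with 1 library left out. With 1 library left out, the log2 fold change of *irg-5* ranged from -0.078 (without N2 replicate 1) to 0.257 and that of *dod-17* from -0.479 to 0.003 (without mutant replicate 2), so both changed sign. *C32H11.3* was not tested at a minimum of 1 CPM in 3 libraries. Same-numbered libraries of the strains deviated together with correlations of 0.111, 0.00812 and 0.130, and not every library correlated best with its own number. With 3 libraries per strain, these values cannot show whether the numbers pair the samples. With the replicate block, 63 genes were called higher and 107 lower, and *dod-22* had an adjusted p of 0.101. At 17 to 65 counts per library for *dod-22* and 3 to 33 for *C32H11.3*, counting error limits both values. The cause of these changes was not tested.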

Other observations

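For each member the gene with the most similar profile over the 6 libraries was found among 8393 genes, by the mean absolute difference of log2 CPM after each profile was centred on its own mean. These distances describe likeness over 6 libraries and carry no test. *dod-19* was nearest to *nspg-10*, at a distance of 0.04, which had 207.5, 232.9 and 232.1 CPM in the mutants, against 125.8, 158.8 and 135.1 CPM in N2. *dod-22* was nearest to *srr-4* (0.11), and *dod-24* to *cyp-36A1* (0.13).

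*irg-4* was nearest to *pcp-1* (0.14), which had 22.8, 25.7 and 26.4 CPM in the mutants, against 74.4, 29.7 and 37.1 CPM in N2. Both genes were highest in N2 replicate 1, more than 1.5 times above the other N2 libraries. The nearest gene to *C32H11.3* was *ceh-13*, at a larger distance of 0.30. *irg-1*, *irg-5* and *dod-17*, whose strains overlapped, were nearest to *Y14H12A.1* (0.10), *F11D5.1* (0.08) and *str-176* (0.07).

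Between members, *dod-19* and *dod-22* were nearest to each other (0.17), although they lie on different chromosomes and differ widely in level. *dod-24* was nearest to *dod-19* (0.21), *irg-1* and *dod-17* to each other (0.22), *irg-5* to *dod-17* (0.29), and *irg-4* and *C32H11.3* to each other (0.36). The clustered genes *dod-22* and *dod-17*, 8.91 kb apart, were thus not nearest to each other.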
